A study of Mus musculus with 33 samples.

Results

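The lung changes within hours of birth from a liquid-filled, growing organ to the organ of gas exchange. Lungs of C57/BL mice born in 10% oxygen and taken 6 h after birth were compared with fetal lungs taken at day 21 of gestation (F21), also in 10% oxygen. The comparison used 3 arrays of each group, all 6 that carried the corresponding titles, of 33 arrays in the series. Whole lung RNA had been hybridised to Affymetrix MGU74Av2 arrays, on which several short probes form a probe set and give a signal for its transcript. The 6 h group came from pups whose dams were kept in 10% oxygen until delivery, and the F21 group from fetuses whose dams had been in 10% oxygen for 12 h. The time that the dams of the 6 h pups spent in 10% oxygen before delivery was not given in the sources used here. Both groups were therefore kept in 10% oxygen, and the comparison holds birth together with any difference in the dams' time in 10% oxygen. Oxygen in the lung itself was not given for these arrays and need not have been equal before and after birth. Lungs of 10% oxygen at 2 h after birth, and lungs at 6 h and at F21 in room air, with 3 arrays each, were used for comparison. The labels did not say whether the arrays of a group came from separate litters or animals, so p-values measure the spread between arrays.

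Before birth the lung epithelium secretes liquid, its mesenchyme and vessels proliferate, and alveolar type 2 cells store surfactant. At birth the liquid is reabsorbed through sodium channels and water channels, helped by adrenal steroids, and the pulmonary vessels dilate as oxygen rises. Low oxygen stabilises hypoxia-inducible factors, which raise transcription of glycolytic enzymes, glucose transporters and vascular growth factors in many tissues.

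The arrays of 10% oxygen were noisier than those of room air. Correlations of log2 signal between arrays of a group ranged from 0.725 to 0.811 in lungs of 10% oxygen and from 0.852 to 0.925 in lungs of room air. The ratio of Gapdh signal at the 3′ end to that at the 5′ end, a measure of RNA integrity, was 1.37, 5.82 and 4.72 in the 6 h lungs and 1.21, 6.79 and 9.40 in the F21 lungs, against 0.734 to 1.15 in the room air lungs. With the ratio as a covariate 198 probe sets passed the test described below, including all 133 that passed without it. The second F21 lung carried liver transcripts, with an Alb signal of 2160 against 84.6 and 65.3 in the other F21 lungs and 12.4 to 259 in the 6 h lungs. None of 13 liver, pancreas, fat and skin markers tested passed the threshold at 6 h by limma, and 2 were higher at an unadjusted p under 0.05. This count cannot show the effect of that lung. A marker high in 1 array widens the spread of its group, and the liver genes Apoa1 and Ahsg were not tested. The surfactant protein gene Sftpc, which defines type 2 cells, had signals of 41394 to 44547 in 6 h lungs and 20943 to 35796 in F21 lungs (log2 difference 0.52, adjusted p = 0.611). The T cell markers Cd3e and Cd8a and the skeletal muscle markers Myh3 and Tnnt3 were too dim in these lungs to be tested.

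At 6 h some cell division genes were lower, and the airway gene Scgb1a1 and some innate defence and stress genes were higher, than in the F21 lungs. Of 6930 probe sets tested with limma, 133 (1.92%) passed a Benjamini-Hochberg adjusted p of 0.05, with 58 (0.837%) higher and 75 (1.08%) lower. The median rise was 1.69 and the median fall -1.37 on the log2 scale, while the median over all genes was -0.03. The 3 arrays of each group did not overlap for any of the 133, as was the case for 1348 (19.5%) of all probe sets tested. Of these probe sets 115 had a single gene symbol, and their 115 genes comprised 49 that rose and 66 that fell. Without the first 6 h lung, the second 6 h lung or the third F21 lung, 67, 74 and 71 probe sets passed. Of the 115 genes, 39 passed whichever of the 6 arrays was left out, 16 of them higher and 23 lower, and the genes described first in each group below are among these 39 unless stated.

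**Figure D1:**
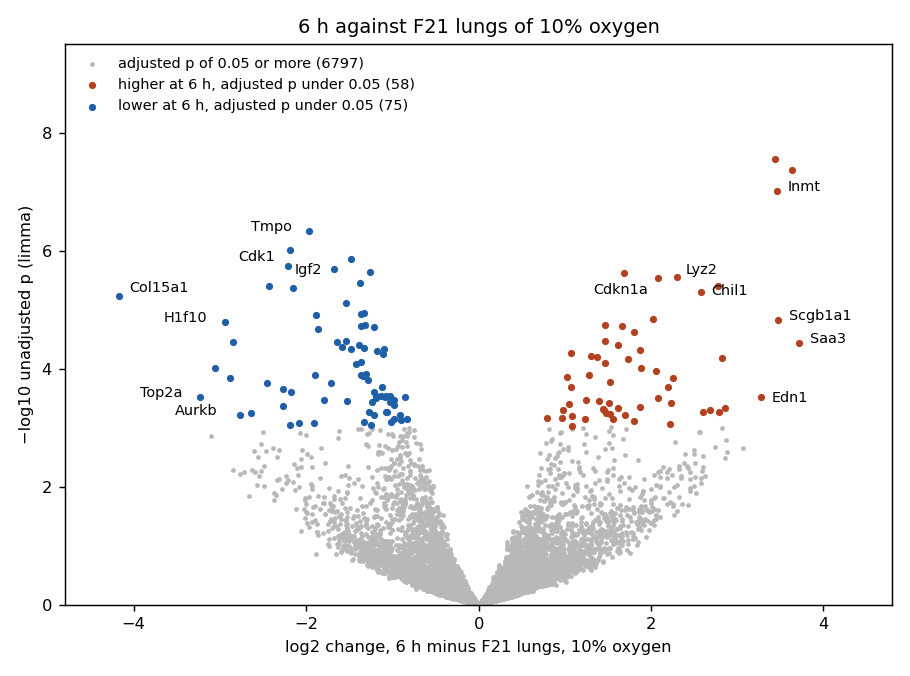
Each point is a probe set, with the log2 change (6 h minus F21 lungs of 10% oxygen) on the horizontal axis and the negative log10 of limma's unadjusted p on the vertical axis. The 58 probe sets that rose and the 75 that fell are coloured, and Col15a1 and Saa3 lie farthest to the left and right.

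Several genes of mitosis were among the firmest falls. Signals of Cdk1, the kinase that drives entry into mitosis, were 82.2, 97.2 and 136 in 6 h lungs and 398, 496 and 541 in F21 lungs. All 3 fetal lungs lay well above every 6 h lung, a 4.61-fold difference (log2 change -2.21 ± 0.29 SE, adjusted p = 0.00167). Ccnb2, a cyclin partner of Cdk1, had signals of 187, 92.3 and 133 in 6 h lungs and 522, 546 and 717 in F21 lungs (log2 change -2.16 ± 0.31, adjusted p = 0.00187). Cdc20, which activates the ligase that destroys cyclins, measured 275, 284 and 227 in 6 h lungs, against 638, 577 and 1292 in F21 lungs (log2 change -1.58 ± 0.28, adjusted p = 0.00749). Bub3 of the spindle checkpoint fell by 1.54 on the log2 scale (adjusted p = 0.00675). Whole lung RNA cannot tell fewer dividing cells from less of each transcript per cell.

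The same promoter elements stood in front of these genes, and the promoters of the 3 with the smallest p and a single annotated start are shown because the genes fell together. The windows run from 250 bases before to 50 bases after the transcription start in RefSeq's annotation of GRCm38.p6, and each lies on the minus strand. They are chr10:69352863-69353162 for Cdk1, chr9:70421505-70421804 for Ccnb2 and chr4:118437294-118437593 for Cdc20. Capitals mark TTTGAA, the core of the cell cycle homology region bound by the DREAM repressor complex, and CCAAT, the box bound by NF-Y, each on either strand (TTCAAA and ATTGG on the other).
Cdk1: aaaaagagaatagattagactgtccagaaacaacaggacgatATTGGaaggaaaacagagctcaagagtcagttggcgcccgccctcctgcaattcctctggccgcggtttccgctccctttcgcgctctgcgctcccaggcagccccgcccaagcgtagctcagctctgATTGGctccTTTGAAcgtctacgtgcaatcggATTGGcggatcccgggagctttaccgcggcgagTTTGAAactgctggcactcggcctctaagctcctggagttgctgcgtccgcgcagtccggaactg
Ccnb2: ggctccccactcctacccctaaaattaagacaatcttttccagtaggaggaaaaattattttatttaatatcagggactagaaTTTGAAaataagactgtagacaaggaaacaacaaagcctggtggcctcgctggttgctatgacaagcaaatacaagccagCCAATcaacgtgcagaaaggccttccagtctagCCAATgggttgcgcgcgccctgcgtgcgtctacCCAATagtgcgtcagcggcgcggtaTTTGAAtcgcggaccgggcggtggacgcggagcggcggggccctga
Cdc20: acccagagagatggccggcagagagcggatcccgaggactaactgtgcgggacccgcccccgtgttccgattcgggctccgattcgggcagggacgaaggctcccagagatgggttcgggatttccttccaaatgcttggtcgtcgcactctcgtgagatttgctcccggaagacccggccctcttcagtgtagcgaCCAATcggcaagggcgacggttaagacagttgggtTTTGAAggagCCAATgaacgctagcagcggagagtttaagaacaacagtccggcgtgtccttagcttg
Among 32851 RefSeq promoters of this length, 17.9% held TTTGAA and 37.4% held CCAAT on either strand, and of the 27025 genes they belong to, 20.2% and 41.1% had at least 1 promoter with TTTGAA and with CCAAT. Of the 23 mitotic genes tested that had a promoter in the table, 18 held TTTGAA and 20 held CCAAT, whether or not they passed the test. The 7 of the list that passed and had a promoter held both. The tubulin gene Tubb5, which fell on a probe set other than the one the list used, held CCAAT but not TTTGAA. Of the 53 genes that fell and were matched, 15 (28.3%) held TTTGAA, as did 6 of 43 (14%) that rose. The share over all genes tested was not counted.

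Of 31 mitotic genes tested, 9 fell and none rose, where 110 of all 5323 genes tested (2.07%) passed, 46 (0.864%) higher and 64 (1.2%) lower. Lists were counted on each gene's brightest tested probe set, so Tubb5, Edn1, Errfi1 and Scd1, which passed only on another probe set, count as not passing. Tubb5 gave a log2 change of -1.30 on the list's probe set (adjusted p = 0.0709) and fell by 1.32 on the other (adjusted p = 0.00394). The list had a median log2 change of -1.58, 28 of its 31 members had a lower mean at 6 h, and 23 were lower at an unadjusted p under 0.05. The other 5 that fell were Top2a, which untangles DNA strands, the Aurora kinase Aurkb, the kinesin Kif23, the microtubule regulator Stmn1 and the Cdk1 subunit Cks1b. Top2a signals were 6.7, 8.0 and 31.0 in 6 h lungs, near the floor of 10 below which values were raised to 10, and 108, 145 and 166 in F21 lungs (log2 change -3.23 ± 0.69, adjusted p = 0.0254). Aurkb signals were 21.3, 29.2 and 26.1 in 6 h lungs and 196, 198 and 133 in F21 lungs (log2 change -2.77 ± 0.64, adjusted p = 0.0368). These 5 calls were less secure than the first 4. Each was lost without 4 or more of the 6 arrays left out in turn, with adjusted p up to 0.117 for Top2a, 0.151 for Aurkb, 0.18 for Kif23, 0.0778 for Stmn1 and 0.16 for Cks1b. Members that did not pass included the proliferation marker Mki67, with signals of 5.3, 42.0 and 28.4 in 6 h lungs and 139, 136 and 148 in F21 lungs (adjusted p = 0.12), and Plk1, with 205, 37.0 and 186 in 6 h lungs and 363, 238 and 244 in F21 lungs (adjusted p = 0.315).

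**Figure D2:**
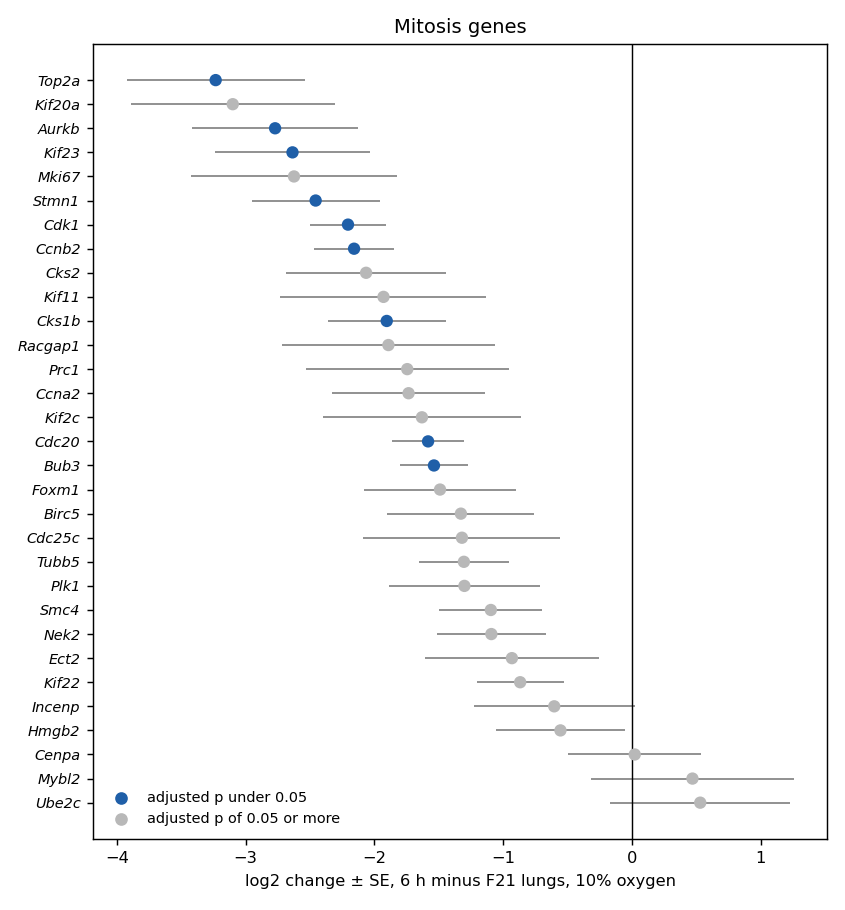
Log2 change (6 h minus F21 lungs of 10% oxygen) with its standard error for the 31 mitotic genes tested, in order of change. The 9 with an adjusted p under 0.05 are dark and all lie left of 0, and only Ube2c, Mybl2 and Cenpa lie right of it.

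Outside the mitotic list, other nuclear genes with firm calls changed in both directions, and they were chosen after their values were seen. Tmpo, a nuclear lamina protein, had signals of 177, 258 and 239 in 6 h lungs and 756, 903 and 962 in F21 lungs, a 3.91-fold difference (log2 change -1.97 ± 0.23, adjusted p = 0.000806). Its other probe set gave -1.41 (adjusted p = 0.25). The histone variant gene H2ax had signals of 148, 232 and 144 in 6 h lungs and 744, 661 and 950 in F21 lungs (log2 change -2.19 ± 0.28, adjusted p = 0.00133). The linker histone gene H1f10 measured 34.5, 27.8 and 100.3 in 6 h lungs, against 303, 367 and 393 in F21 lungs (log2 change -2.94 ± 0.47, adjusted p = 0.0045). The cell cycle kinase Cdk4 (log2 change -1.11), the nucleolar protein Npm1 (-1.38), the nuclear transport GTPase Ran (-1.31) and the corepressor Trim28 (-1.26) were lower without overlap. The other probe set of Cdk4 gave -0.80 (adjusted p = 0.435). A probe set annotated to several histone genes fell as well (log2 change -2.43 ± 0.35, adjusted p = 0.00181). Its signals were 1635.5, 2546 and 3079 in 6 h lungs and 10444, 13476 and 14379 in F21 lungs. It has no single symbol and was not followed over the arrays left out. Other histone genes rose. H3c14, which encodes a core histone and has near-identical copies, had signals of 361, 587 and 464 in 6 h lungs and 197, 175 and 137 in F21 lungs (log2 change 1.46 ± 0.25, adjusted p = 0.00675). The linker histone gene H1f2 measured 454, 769.7 and 909 in 6 h lungs, against 172, 215 and 235 in F21 lungs (log2 change 1.73 ± 0.32, adjusted p = 0.00945), and lost its call without the second 6 h lung (adjusted p = 0.0566). Of 23 replication genes tested, 2 fell, the DNA polymerase subunit Pold1 (-2.88, adjusted p = 0.0155) and the maintenance methyltransferase Dnmt1 (-2.08, adjusted p = 0.0446), and their calls were lost without 4 and 5 of the 6 arrays left out in turn. The list median was -0.84, with 22 of 23 members lower. The DNA clamp gene Pcna, a common marker of replication, had signals of 82.1, 86.9 and 127 in 6 h lungs and 116, 178 and 188 in F21 lungs (adjusted p = 0.526).

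Fetal growth factors were lower at 6 h. Igf2, the main fetal insulin-like growth factor, had signals of 1736, 1872 and 2261 in 6 h lungs and 5162, 5539.6 and 8300.2 in F21 lungs, a 3.18-fold difference (log2 change -1.67 ± 0.22, adjusted p = 0.00167). The heparin-binding growth factor Mdk measured 352, 253 and 136 in 6 h lungs, against 1048, 638 and 874 in F21 lungs (log2 change -1.86 ± 0.31, adjusted p = 0.00469). The groups did not overlap in either gene. Among the proteins that bind insulin-like growth factors, Igfbp2 fell by 1.72 on the log2 scale (adjusted p = 0.0178), while Igfbp3 and Igfbp6 rose. Igfbp3 signals were 222, 281 and 149 in 6 h lungs and 14.9, 35.5 and 48.9 in F21 lungs (log2 change 2.83 ± 0.52, adjusted p = 0.00914). Another probe set of Igfbp3 gave 3.07 without passing (adjusted p = 0.0762). The call of Igfbp2 was lost without the first 6 h lung or the third F21 lung (adjusted p up to 0.109). That of Igfbp3 was lost without the first or the second 6 h lung (adjusted p up to 0.0681). The call of Igfbp6 (log2 change 1.05, adjusted p = 0.0285) was lost without 4 of the 6 arrays. Of 23 genes of the IGF and imprinted growth list, 2 rose, 2 fell and 19 did not pass. Fgfr2, the epithelial receptor for mesenchymal fibroblast growth factors, was the only one of 50 developmental signalling genes to pass (log2 change -1.02, adjusted p = 0.0438), and it passed in only 1 of the 6 fits that left out an array. Its other probe set gave -0.56 (adjusted p = 0.279).

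Collagen genes fell, among a matrix list that mostly did not pass. Col15a1, a basement membrane collagen, had signals of 10.4, 32.5 and 7.8 in 6 h lungs, close to the floor, and 212, 264 and 358 in F21 lungs (log2 change -4.18 ± 0.61, adjusted p = 0.00226). Col6a3 (log2 change -1.36, adjusted p = 0.00394), the collagen chaperone Serpinh1 (-1.22, adjusted p = 0.00451) and Col1a1 also fell. Col1a1 signals were 1189, 1383 and 1447 in 6 h lungs and 2486, 3208 and 3425 in F21 lungs (log2 change -1.17 ± 0.21, adjusted p = 0.00766), while its other probe set gave -0.78 (adjusted p = 0.107). Fbln1, an elastic fibre protein, was the fifth (-0.98, adjusted p = 0.0267) and lost its call without 4 of the 6 arrays. Its other tested probe sets gave -1.18, -1.09 and -1.19 without passing. In all 5 of 53 matrix genes fell, none rose, and the median was -0.42. Elastin itself had signals of 18562, 21768 and 17292 in 6 h lungs and 11447, 15627 and 12806 in F21 lungs without passing (Eln, log2 change 0.54, adjusted p = 0.457). Beside them Hsp90b1, a chaperone of the endoplasmic reticulum, fell by 1.48 on the log2 scale (adjusted p = 0.00163), with signals of 368, 339.5 and 481 in 6 h lungs against 999, 1139 and 1150.0 in F21 lungs.

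**Figure D3:**
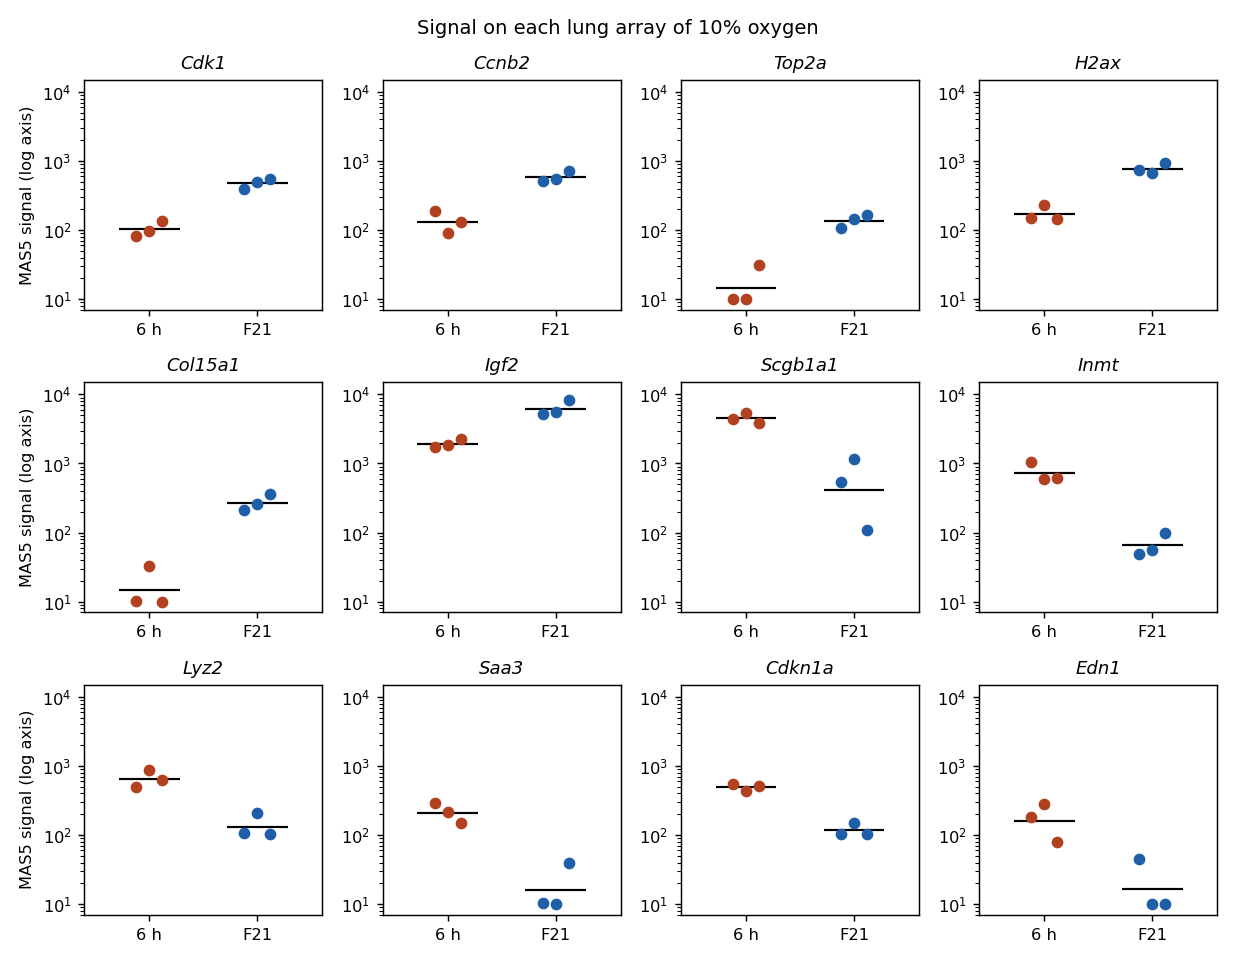
Signal on each of the 3 arrays of 6 h and of F21 lungs of 10% oxygen, on a log axis, for 12 genes. Points are arrays, horizontal lines are geometric means, and values under 10 are drawn at 10. The arrays of 6 h and F21 do not overlap in any panel, as for all 133 probe sets that passed, from which these genes were taken.

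Scgb1a1 and Inmt, the 2 genes of the airway list that rose, were among the largest rises. Scgb1a1, the secretoglobin that defines club cells, had signals of 4461, 5427 and 3863 in 6 h lungs and 549, 1152 and 108 in F21 lungs, an 11.1-fold difference (log2 change 3.47 ± 0.56, adjusted p = 0.00441). Inmt, an enzyme that methylates indole amines and is abundant in lung, measured 1036, 589 and 609 in 6 h lungs, against 49.7, 55.5 and 100.1 in F21 lungs (log2 change 3.46 ± 0.37, adjusted p = 0.000223). The lowest 6 h lung was more than 3 times the highest F21 lung for either gene. Both belong to the airway list, in which 2 of 13 genes rose, and which lung cells held the Inmt transcript was not tested. A probe set that the platform annotation assigns to Wdr92 had the smallest p among those with a single gene symbol, with signals of 19567, 24675 and 12723 in 6 h lungs and 1530.2, 1988 and 1059 in F21 lungs (log2 change 3.63 ± 0.36, adjusted p = 0.000149).

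Alveolar cell genes rose in part. Chil1, a secreted chitinase-like protein, had signals of 274, 261 and 251 in 6 h lungs and 39.1, 63.7 and 34.1 in F21 lungs (log2 change 2.57 ± 0.37, adjusted p = 0.00203). Lyz2, the lysozyme of type 2 cells and macrophages, measured 501, 866 and 629 in 6 h lungs, against 106, 209 and 103 in F21 lungs (log2 change 2.30 ± 0.32, adjusted p = 0.00167). With Hc, the fifth complement component (2.19, adjusted p = 0.0197), these were the 3 of 21 type 2 cell genes that rose, with Scd1 passing only on a probe set the list did not use, and the Hc call was lost without 5 of the 6 arrays. The surfactant genes did not pass: Sftpb had signals of 5615, 3624 and 4009 in 6 h lungs and 4959, 2770.0 and 889 in F21 lungs (adjusted p = 0.36). Of 15 type 1 cell genes, S100a6 (log2 change 1.30, adjusted p = 0.00894) and Spock2 (1.48, adjusted p = 0.0347) rose and Igfbp2 fell, with the Spock2 call lost without 5 of the 6 arrays. Ager, a defining marker of type 1 cells, had signals of 5509, 2760.3 and 3922 in 6 h lungs and 5579, 2702 and 1020.2 in F21 lungs (adjusted p = 0.551).

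Genes of innate defence were higher at 6 h. Saa3, an acute phase serum amyloid of epithelium and macrophages, had signals of 293, 212 and 149.6 in 6 h lungs and 10.5, 8.9 and 38.9 in F21 lungs (log2 change 3.72 ± 0.65, adjusted p = 0.00692). Its F21 signals of 10.5 and 8.9 lay near the floor of 10. S100a8, a calcium-binding protein abundant in neutrophils, measured 411, 620.3 and 451 in 6 h lungs, against 100.4, 205 and 131 in F21 lungs (log2 change 1.81 ± 0.30, adjusted p = 0.00516). Its partner S100a9 had 237, 284 and 189 in 6 h lungs and 59.4, 144 and 50.6 in F21 lungs without passing (adjusted p = 0.16). Lcn2, a siderophore-binding protein, had signals of 205, 127 and 194 in 6 h lungs and 52.2, 24.3 and 36.9 in F21 lungs (log2 change 2.25 ± 0.45, adjusted p = 0.0154), while its other probe set gave 0.93 (adjusted p = 0.639). Saa3 and Lcn2 lost their calls without the first 6 h lung (adjusted p = 0.0502 and 0.0897).

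S100a8 and Lcn2 were the 2 of 15 neutrophil genes that rose, with a median of 0.87 and 14 of 15 members higher. Lyz2 was the only one of 16 macrophage genes to rise, with a median of 0.65, 11 members higher and 5 lower. The macrophage marker Csf1r had a log2 change of -0.35 (adjusted p = 0.858). The summed signal of the neutrophil list was 3627 to 4543 in 6 h lungs and 1707 to 2475 in F21 lungs. That of the macrophage list, which includes Lyz2 itself, was 2092 to 2939 in 6 h lungs and 1228 to 1389 in F21 lungs. The neutrophil granule gene Mpo (30.6 to 70.9 in 6 h lungs, 10.5 to 76.1 in F21 lungs) and the macrophage receptor gene Marco (5.1 to 75.0 in 6 h lungs, 5.0 to 12.3 in F21 lungs) were too dim to be tested. The part of cell numbers in these rises was not tested. Of 17 cytokine and acute phase genes only Saa3 passed.

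The promoters of Saa3 and Lcn2, picked by name, are shown with TTGCNNAA, a string that C/EBP sites match, in capitals on either strand. Both promoters held it, and binding was not tested. They lie on the minus strand of GRCm38.p6 at chr7:46715627-46715926 for Saa3 and at chr2:32387690-32387989 for Lcn2.
Saa3: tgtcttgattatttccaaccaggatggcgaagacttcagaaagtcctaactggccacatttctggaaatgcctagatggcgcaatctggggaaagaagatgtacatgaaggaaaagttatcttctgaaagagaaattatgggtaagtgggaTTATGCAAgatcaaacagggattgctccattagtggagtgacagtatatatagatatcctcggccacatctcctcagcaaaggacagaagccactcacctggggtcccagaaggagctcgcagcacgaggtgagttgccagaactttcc
Lcn2: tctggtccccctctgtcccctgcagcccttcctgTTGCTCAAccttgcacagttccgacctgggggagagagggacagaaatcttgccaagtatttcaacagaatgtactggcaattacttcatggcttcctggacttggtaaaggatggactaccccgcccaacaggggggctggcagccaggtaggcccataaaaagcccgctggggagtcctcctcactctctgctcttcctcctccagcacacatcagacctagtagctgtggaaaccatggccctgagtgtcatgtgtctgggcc
The motif stood in 10.8% of all promoters and 12.2% of all genes with a promoter, in 8 of 43 (18.6%) matched genes that rose and in 4 of 53 (7.55%) that fell. ACGTG, the core of the hypoxia response element, stood in 19.6% of all promoters and 21.8% of genes, in 14 of 43 (32.6%) that rose and in 26 of 53 (49.1%) that fell. TTTNNCGC, an E2F site, stood in 5.17% of all promoters and 5.93% of genes, in 8 of 53 (15.1%) genes that fell and in 0 of 43 that rose. The shares over the genes tested were not counted, so none of these motifs can be called enriched.

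The growth arrest gene Cdkn1a rose opposite to the mitotic genes. This inhibitor of cyclin-dependent kinases, a target of p53 and of glucocorticoids, had signals of 542, 439 and 512 in 6 h lungs and 104.5, 150.3 and 102 in F21 lungs, a 4.23-fold difference (log2 change 2.08 ± 0.29, adjusted p = 0.00167). Its other probe set gave 1.68 (adjusted p = 0.152). Cdkn1a was the only one of 24 growth arrest and p53 target genes to rise. Gadd45g fell (log2 change -1.19, adjusted p = 0.0257), a call lost without 4 of the 6 arrays. Dusp1, a phosphatase that turns off stress kinases, measured 367, 387 and 1202 in 6 h lungs, against 109, 163 and 135 in F21 lungs (log2 change 2.05 ± 0.40, adjusted p = 0.0133). The third 6 h lung was far above the other 2. Sgk1, a kinase that keeps epithelial sodium channels at the membrane, had signals of 214, 348 and 473 in 6 h lungs and 91.7, 70.1 and 53.1 in F21 lungs (log2 change 2.23 ± 0.49, adjusted p = 0.0284). The water channel gene Aqp1 measured 2131, 1071 and 625 in 6 h lungs, against 478, 321 and 123 in F21 lungs (log2 change 2.08 ± 0.45, adjusted p = 0.0255), while its second, dim probe set gave 0.08. The calls of Sgk1 and Aqp1 were lost without 4 and 3 of the 6 arrays, with adjusted p up to 0.106 and 0.133. With Lcn2, these made 5 of 21 genes of liquid clearance and glucocorticoid response that rose, and none fell.

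Dusp1 and Sgk1 were also the 2 of 36 immediate early genes that rose, a list with a median of 0.46. Errfi1, which restrains the epidermal growth factor receptor, gave 1.57 on the list's probe set (adjusted p = 0.1) and 1.56 on another (adjusted p = 0.0401). Klf4, the transcription factor on which the study centred, did not pass, with signals of 198, 297 and 421 in 6 h lungs and 42.5, 157 and 121 in F21 lungs (log2 change 1.65 ± 0.53, 95% interval 0.53 to 2.77, adjusted p = 0.136). Every 6 h lung exceeded every F21 lung. Fos signals spread from 6.4 to 621 over the 6 h lungs and from 27.7 to 44.3 over the F21 lungs (adjusted p = 0.551).

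Most hypoxia-inducible genes did not differ past the threshold, nor did most genes tested, of which 2.07% passed. In room air 0 of these hypoxia-inducible genes rose and 0 fell, with a list median of 0.23. The part of oxygen level in this was not tested. Igfbp3 was the only one of 29 to rise on the probe sets used for the list, which counts Edn1 on a probe set that did not pass, and the list median was 0.16. Vegfa, the vascular endothelial growth factor, had signals of 233, 175 and 238 in 6 h lungs and 282, 182 and 198 in F21 lungs (log2 change -0.02, adjusted p = 0.984). Adm, which encodes adrenomedullin, measured 53.4, 157 and 33.7 in 6 h lungs, against 4.5, 20.5 and 14 in F21 lungs (adjusted p = 0.178). The glycolytic enzymes, also targets of hypoxia-inducible factors, were lower where they passed: 2 of 15 fell, with a median of -0.82 and 14 of 15 members lower. Ldha, lactate dehydrogenase, had signals of 741, 401 and 1097 in 6 h lungs and 1485, 1470 and 2361 in F21 lungs (log2 change -1.33 ± 0.32, adjusted p = 0.0437), and phosphoglycerate mutase Pgam1 fell by 2.27 on the log2 scale (adjusted p = 0.021). Ldha lost its call without 5 of the 6 arrays and after quantile normalization, and Pgam1 without the first 6 h lung or the third F21 lung.

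Among antioxidant genes, Gpx3, a secreted glutathione peroxidase, had signals of 3674, 3283 and 1632 in 6 h lungs and 744, 567 and 703 in F21 lungs, a 4.05-fold difference (log2 change 2.02 ± 0.32, adjusted p = 0.00428). Txnip, which binds thioredoxin, measured 711, 838 and 1611 in 6 h lungs, against 310.3, 372 and 262 in F21 lungs (log2 change 1.66 ± 0.27, adjusted p = 0.00451). Another probe set of Txnip gave 0.19. Prdx2, a peroxiredoxin, fell (log2 change -0.90, adjusted p = 0.0413), a call lost without 4 of the 6 arrays and not shared by its other probe set (0.30). These were the 3 of 37 antioxidant genes that passed. The haem-degrading enzyme Hmox1 had signals of 287, 229.7 and 277 in 6 h lungs and 347, 251 and 197 in F21 lungs (adjusted p = 0.974).

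Among genes with roles in vessels, some chosen after their values were seen, calls went in both directions. Ramp1, a subunit of the receptor for the vasodilator CGRP, had signals of 396, 293 and 317 in 6 h lungs and 148, 105 and 81.0 in F21 lungs (log2 change 1.62 ± 0.28, adjusted p = 0.00711). Sphk1, which makes sphingosine 1-phosphate, measured 268, 189.7 and 205 in 6 h lungs, against 69.3, 61.1 and 50.6 in F21 lungs (log2 change 1.87 ± 0.33, adjusted p = 0.00762), and it lost its call without the first 6 h lung (adjusted p = 0.0502). Ace, the angiotensin converting enzyme of lung endothelium, was the only one of 37 endothelial genes to pass on the probe sets used for the list, with signals of 391, 343 and 411 in 6 h lungs and 158, 80.3 and 184 in F21 lungs (log2 change 1.52 ± 0.33, adjusted p = 0.0284). Its other, dimmer probe set gave 1.08 (adjusted p = 0.659). The endothelial cadherin gene Cdh5, a defining marker, had a log2 change of 0.12 (adjusted p = 0.878). For endothelin, the vasoconstrictor encoded by Edn1, 1 probe set gave signals of 182, 279 and 78.7 in 6 h lungs and 44.4, 7.3 and 4.1 in F21 lungs (log2 change 3.27 ± 0.70, adjusted p = 0.0254), and the other gave a change of 0.71 that did not pass (adjusted p = 0.487). Plxnd1, a semaphorin receptor of endothelium, fell, with signals of 209, 188 and 252 in 6 h lungs and 766, 517 and 619 in F21 lungs (log2 change -1.54 ± 0.23, adjusted p = 0.00286). F3, tissue factor, rose by a log2 change of 1.80 (adjusted p = 0.0425). The calls of Ace and Edn1 were lost without 4 of the 6 arrays and that of F3 without 5.

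The remaining genes among the 12 largest rises were Daxx (log2 change 2.86), Tfcp2l1 (2.78), Setd6 (2.68) and the fatty acid desaturase gene Scd1 (2.60), and the remaining largest falls were Ruvbl1 (-3.05), the cadherin gene Cdh16 (-2.85) and the oxytocin gene Oxt (-2.26). Their adjusted p ranged from 0.00675 for Cdh16 to 0.0347, and of the 7 only Cdh16 kept its call without each array in turn. The other tested probe sets of Tfcp2l1 (0.23), Ruvbl1 (0.72) and Scd1 (2.28, adjusted p = 0.0686) did not pass, and the one of Scd1 is brighter and stands for it in the lists. Ruvbl1 signals in the 6 h lungs, 12.8, 17.3 and 7.9, lay near the floor of 10. No gene passed among 14 lymphocyte, 15 circadian and 16 lipid synthesis genes by limma on the probe sets used for the lists, where 1, 0 and 4 had an unadjusted p under 0.05. None of 60 oxidative phosphorylation genes passed either, with 48 members lower, a median of -0.23 and 15 at an unadjusted p under 0.05.

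**Figure D4:**
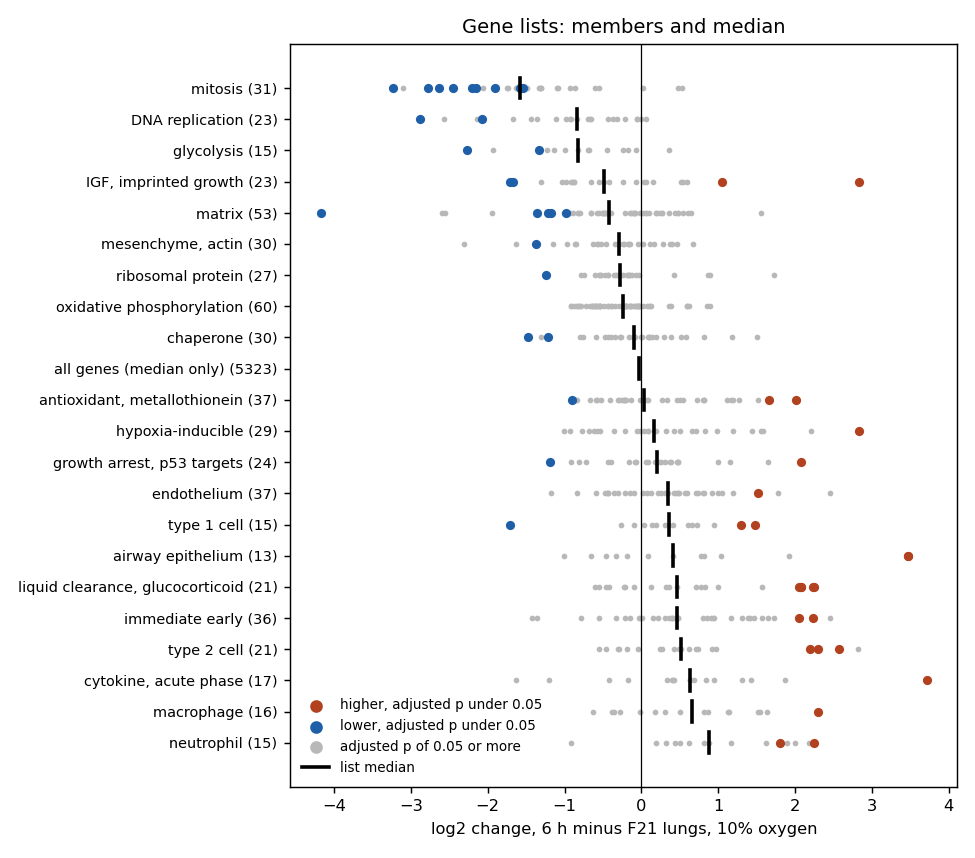
Log2 change (6 h minus F21 lungs of 10% oxygen) of each tested member of 21 gene lists, with the number tested in brackets and the list median as a black bar. Members with an adjusted p under 0.05 are coloured. The mitosis list has the lowest median (-1.58) and the neutrophil list the highest (0.87), beside -0.03 over all 5323 genes.

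Several of these changes were already present at 2 h after birth. The 2 h and 6 h comparisons share the F21 arrays, so their values are given side by side. At 2 h, 36 probe sets (0.519%) passed against F21, 21 (0.303%) higher and 15 (0.216%) lower. Mean Tmpo signals were 874 at F21, 248 at 2 h and 225 at 6 h, with log2 changes from F21 of -1.83 at 2 h (adjusted p = 0.00399) and -1.97 at 6 h. Mean Lyz2 signals were 139 at F21, 668 at 2 h and 666 at 6 h, and those of Chil1 were 45.6 at F21, 291 at 2 h and 262 at 6 h. Mean Cdk1 signals were 478 at F21, 177 at 2 h and 105 at 6 h, and those of Scgb1a1 were 603 at F21, 2473 at 2 h and 4583 at 6 h (adjusted p at 2 h = 0.0558). Dusp1 had its highest mean at 2 h, 901, against 135 at F21 and 652 at 6 h. Between 6 h and 2 h no probe set passed by limma, with 392 at an unadjusted p under 0.05, so no single gene can be said to differ between these times. Of the 31 mitotic genes 3 had fallen at 2 h, where 11 of all 5323 genes (0.207%) fell.

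In room air, 130 probe sets (1.88%) passed between 6 h and F21, 96 (1.39%) higher and 34 (0.491%) lower, in a comparison that shares no array with that of 10% oxygen. Of the 31 mitotic genes, 9 fell in 10% oxygen and 2 in room air, where 70 of all 5323 genes (1.32%) rose and 30 (0.564%) fell, with list medians of -1.58 in 10% oxygen and -0.98 in room air. Cdkn1a changed by 2.08 in 10% oxygen and 2.14 in room air (adjusted p in room air = 0.0475), and the difference between these changes was -0.06, with a 95% interval of -0.81 to 0.69. Klf4 changed by 1.65 in 10% oxygen and by 1.78 in room air, where it passed (adjusted p = 0.0179), with a difference of -0.14 and an interval of -1.39 to 1.12. S100a8 changed by 1.81 in 10% oxygen and 3.04 in room air (adjusted p of the difference = 0.566).

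No probe set passed the test of the difference between the 2 oxygen levels in the change from F21 to 6 h by limma, and 476 had an unadjusted p under 0.05. The smallest adjusted p, 0.0929, belonged to the metal-binding metallothionein gene Mt1. Its mean signals in 10% oxygen were 689 at 6 h and 814 at F21, and in room air 1445 at 6 h and 358 at F21, a difference of log2 changes of -2.21. Leaving out the first F21 lung of 10% oxygen brought Mt1 to an adjusted p of 0.0395, and leaving out the first F21 lung of room air to 0.391. It was 0.0397 with the Gapdh ratio as covariate and 0.384 with no filter. No further setting tried brought Mt1 under 0.05. Igf2, Saa3, Chil1 and H2ax had an adjusted p of 0.296 each. Saa3 changed by 3.72 in 10% oxygen and by 0.05 in room air, and Igf2 by -1.67 in 10% oxygen and -0.46 in room air (adjusted p in room air = 0.264).

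Several of these genes differed between oxygen levels in the F21 lungs. These F21 lungs of 10% oxygen are also the baseline of the 6 h comparison, so the values are given side by side. Between F21 lungs of 10% oxygen and of room air 279 probe sets (4.03%) passed, 109 (1.57%) higher in 10% oxygen and 170 (2.45%) lower. Between the 6 h lungs 220 (3.17%) passed, 99 (1.43%) higher in 10% oxygen and 121 (1.75%) lower. Mean Chil1 signals in the F21 lungs were 45.6 in 10% oxygen and 275 in room air (log2 difference -2.62, adjusted p = 0.000594), and in the 6 h lungs 262 in 10% oxygen and 423 in room air (-0.62, adjusted p = 0.306). Mean Igf2 signals in the F21 lungs were 6334 in 10% oxygen and 2650.0 in room air (1.23, adjusted p = 0.00524), and in the 6 h lungs 1956 in 10% oxygen and 1937 in room air (0.01, adjusted p = 0.984). H1f10 averaged 355 in F21 lungs of 10% oxygen and 25.4 in F21 lungs of room air (3.81, adjusted p = 0.00148), and Saa3 19.4 in 10% oxygen and 123 in room air (-2.80, adjusted p = 0.0152). H2ax, Tmpo, Cdk1 and Col1a1 were higher in the F21 lungs of 10% oxygen by 1.49, 1.39, 1.13 and 1.42 on the log2 scale (adjusted p from 0.00466 to 0.0333). Cdkn1a and S100a8 had log2 differences of 0.17 and -0.04 between the F21 groups.

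Set against the F21 lungs of room air instead of their own, the 6 h lungs of 10% oxygen no longer had higher Chil1 (log2 difference -0.05) or Lyz2 (-0.53), nor lower Col1a1 (0.25) or H1f10 (0.86). No array of 10% oxygen had a Gapdh ratio inside the room air range, so oxygen level and this ratio cannot be told apart. The ratio for Actb overlapped, since the arrays of 10% oxygen spanned 1.27 to 2.68 while those of room air reached 1.96.

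**Figure D5:**
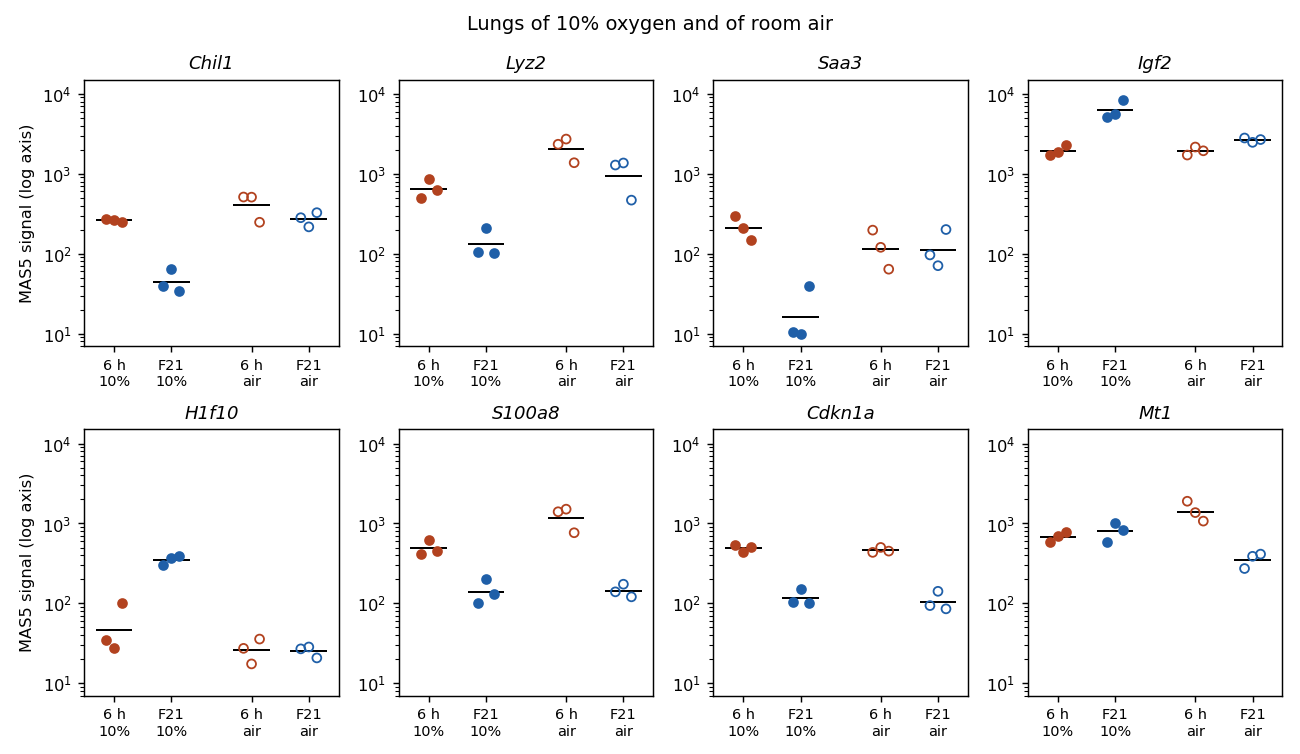
Signal on each array, on a log axis, for 8 genes in lungs of 10% oxygen (filled points) and of room air (open points), at 6 h and at F21. Points are arrays, horizontal lines are geometric means, and values under 10 are drawn at 10. Chil1, Lyz2 and Saa3 are lower, and Igf2 and H1f10 higher, in the F21 lungs of 10% oxygen than in those of room air, while Cdkn1a lies at similar levels in both.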

How the data were processed

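Per the labels and the methods, the authors hybridised whole lung RNA to MGU74Av2 arrays and made each signal with Affymetrix Microarray Suite (MAS) 5.0, scaling every chip to the same target intensity. The deposited signal values are linear, and the intensity unit is arbitrary. The 66 controls among 12488 probe sets were dropped, and each signal, raised to 10 where it was lower, was put on the log2 scale. A probe set was tested if its signal was in the top 40% of its array in at least 3 of 24 lung arrays, which left 6930. Gene names came from the platform annotation, which can be old.

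The comparison was fitted with limma 3.58.1 in R 4.3.3 (lmFit, contrast, eBayes with trend) on the 9 lung arrays of 10% oxygen (F21, 2 h, 6 h), with Benjamini-Hochberg adjustment over all probe sets tested. The difference between oxygen levels was fitted on 12 arrays and the room air comparison on 15 lung arrays. The methods' two-sample test on the 6 arrays was an alternative, since 2 groups of 3 arrays give few degrees of freedom. Lists used the brightest tested probe set of each gene. The rule for named genes was the 12 largest rises and falls past the threshold whose arrays did not overlap, up to 5 genes of each list by p, Klf4 and the lung markers. Other genes with a call that held without each array were named after their values were seen. The members and lists were chosen with earlier results of these data known. The fit was tested on simulated data. Promoters came from RefSeq, and 96 of 115 genes matched.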

Additional observations from a re-analysis of the deposited data

Results flagged for a closer look

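In the lungs of 10% oxygen the ratio of 3′ to 5′ Gapdh signal, which is outside the main measurement, reached 5.82 at 6 h and 9.40 at F21, above the room air lungs, where it was at most 1.15. The first 6 h lung and the first F21 lung had the lowest ratios of their groups, 1.37 and 1.21.

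The second F21 lung of 10% oxygen stood apart in liver transcripts. Its signals were 2160 for albumin (Alb), 575.6 for Apoa1 and 251.3 for Ahsg, whereas the 6 h lungs had 12.4 to 259 for Alb, 43.1 to 63.1 for Apoa1 and 20.0 to 33.8 for Ahsg. The other F21 lungs had 84.6 and 65.3 for Alb, 8.7 and 20.9 for Apoa1, and 9.3 and 31.1 for Ahsg. Without this array 90 probe sets passed the threshold between 6 h and F21, 76 of them among the 133 called with it.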

How the results depend on the processing

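With 3 arrays a group and 6 residual degrees of freedom, single calls moved with the choice of arrays and filter, while directions held except against the room air F21 baseline. Of the 115 genes, 27 kept their call in every one of up to 17 limma settings that kept their own F21 lungs as baseline. Chil1 and Lyz2 are among them and reversed against the F21 lungs of room air. Values near the floor of 10 have no order, and depth here is signal over background only.

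The 133 probe sets became 69 with no filter, 437 when all 24 lung arrays shared the spread, 85 with only the 6 arrays of the 2 groups and 520 against the room air F21 lungs. The methods' two-sample test gave 217 on log2 values and 242 on linear values at its own unadjusted threshold, and 0 after adjustment, where 797 had an unadjusted p under 0.05. Leaving out 1 array gave 67 to 166. For the difference between oxygen levels, the 0 became 1 with all 24 lung arrays (Odc1) and 1 with the Gapdh ratio as covariate (Mt1), and 0 to 2 when 1 array was left out. Without the first F21 lung of 10% oxygen these were Mt1 and Mtx1, and without the second Abcc3.

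The 9 mitotic genes that fell became 4 with no filter, 5 with the top 30% filter, 14 with all 24 arrays, 5 against room air F21, 5 with the methods' test on log2 values and 0 after its adjustment, and 4 to 8 when 1 array was left out. The 5 matrix genes became 11 with all 24 arrays, 1 with weights per oxygen level, 9 with the Gapdh covariate and 0 with the adjusted methods' test, and 4 to 7 when 1 array was left out. The 5 liquid clearance and glucocorticoid genes became 2 with no filter, 2 with weights per oxygen level, 3 with 6 arrays, 3 against room air F21, 3 with the methods' test on either scale and 0 after adjustment, and 3 to 5 when 1 array was left out. Of the 24 genes of largest change, 13 passed with no filter, 15 with 6 arrays, 7 against room air F21, 15 with the methods' test on log2 values and 0 after adjustment, and 12 to 19 when 1 array was left out.

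Against room air F21 the log2 change reversed for Chil1 (-0.051), Col1a1 (0.25), Ewsr1 (0.14), H1f10 (0.86), Ifitm3 (-0.67), Lyz2 (-0.53), Maged2 (0.19), Pabpc1 (0.17) and Scd1 (-0.998). The cause was not tested for these or the other changes above, beyond fewer samples or more probe sets tested. With the replicate number as a replicate block 159 probe sets passed, 65 higher and 94 lower, and 10 mitotic genes fell. Deviations of same-numbered 6 h and F21 arrays correlated at 0.13, 0.01 and 0.04, and those of different numbers at -0.09 to 0.05. With 3 arrays a group this cannot settle whether the numbers pair the arrays.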
